A study of Homo sapiens with 3 samples.

Results

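The 10 glycolytic enzymes HK1, HK2, GPI, PFKL, ALDOA, GAPDH, PGK1, ENO1, PKM and LDHA were examined in LNCaP cells, a long-established androgen-responsive line from a human prostate cancer. They were chosen by name, as the rows of the read count table whose Ensembl identifier carries 1 of these GENCODE gene names, and all 10 were found among 58884 gene rows. All 10 also passed the filter on low values, which asked for 50 or more raw counts per library on average and kept 12256 genes. The cells had grown for 24 h in complete medium and then spent 72 h in a mixture that was 50% conditioned medium (CM) and held 2% serum. The 3 media were control-CM, PVAT-CM (called normal by the submitters) and PPAT-CM (called tumor), where PPAT is periprostatic adipose tissue and PVAT is not spelled out in the labels. Each medium had 1 library, the labels name no genotype or drug in any group, and they do not say how many cultures or tissue donors stood behind a medium.

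Glycolysis splits 1 glucose into a pair of pyruvate molecules in the cytosol and yields ATP and NADH without oxygen. Its investment phase, from hexokinase to aldolase, spends ATP to trap and cleave the sugar, and its payoff phase, from glyceraldehyde phosphate dehydrogenase to pyruvate kinase, recovers ATP. Lactate dehydrogenase then turns pyruvate into lactate and restores NAD+. Several of these genes are textbook targets of the hypoxia inducible factor HIF-1 and of E-box binding factors. Prostate luminal cells are known for a metabolism that leans on citrate secretion, and prostate cancer cells for a later turn to glucose.

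The library totals lay between 14174241 and 16965584 counts, and the share from the mitochondrial chromosome was 30.8% for control-CM, 21.1% for PVAT-CM and 15.5% for PPAT-CM. That share moved with the media, so counts were scaled with TMM factors and given as scaled CPM, which is CPM computed on the TMM-adjusted library size. All 8 prostate luminal markers were measured, and 4 of them, among them KLK3 and TMPRSS2, were at least 1.5-fold lower in PPAT-CM than in control-CM, as were 8.71% of all genes. Of the adipocyte genes, ADIPOQ, LEP, FABP4 and LPL had 0 counts in every library, but the lipid droplet gene PLIN1 had 13 counts for control-CM, 27 for PVAT-CM and 89 for PPAT-CM. PLIN1 was 5.65-fold higher in PPAT-CM (3.14 to 11.0) and 2.21-fold higher in PVAT-CM (1.10 to 4.66), while the adipokine gene CFD had 133, 170 and 111 counts. Among the leukocyte genes PTPRC, CD3E and TYROBP had 0 counts in every library, and ITGAM had 1, 0 and 21. The 7 adipocyte markers together had 146 to 201 counts per library, the 8 leukocyte markers 12 to 31, the 4 endothelial markers 16 to 35 and the 5 fibroblast markers 367 to 783, most of the last from COL1A1, and these sums do not show moves of single markers. The part of these shifts in the results below was not tested. In bulk RNA, fewer cells of a type and less RNA per cell cannot be told apart. With 1 library per medium no value has a replicate check and no p-value is given. Intervals are 95% exact binomial intervals, which cover counting error only and treat reads as independent molecules.

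RefSeq start site windows of GRCh38.p14 were read for all 10 enzymes, 20 windows in all, and the 250 bases before each start were searched for ACGTG on both strands. These letters are the core of the hypoxia response element, and they also lie inside the E-box CACGTG. At least 1 window of 6 enzymes held ACGTG, those of HK2, GPI, ALDOA, GAPDH, PGK1 and LDHA, as did 18.5% of all 35116 windows of that length. Over windows, 9 of the 20 held it. CACGTG was found for 4 enzymes, HK2, ALDOA, GAPDH and LDHA, and in 6.35% of all windows. No window of HK1, PFKL, ENO1 or PKM held ACGTG, which says only that these letters are not there. GPI, ENO1 and PKM had 1 window each, and all 250 bases of it lay in annotated exons. HK1 has 7 windows and ALDOA 3, so the counts per enzyme and per window are not on the same footing.

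The stretches that carry the matches are shown for LDHA, lower in both adipose media, for PGK1, lower in both with TMM but not in PPAT-CM with total counts, for GAPDH, higher in both, and for HK2, whose order differed between them. Each runs 5′ to 3′ on the gene's strand, and capitals mark ACGTG or its reverse complement. The second LDHA stretch is kept short because it lies in an exon of a longer annotated transcript, and the others lie outside annotated exons.
LDHA, chr11:18394313-18394387, + strand: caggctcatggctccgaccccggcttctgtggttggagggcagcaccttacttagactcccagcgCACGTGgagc
LDHA, chr11:18394472-18394498, + strand: ctcaCACGTGggttcccgCACGTccgc
PGK1, chrX:78103998-78104173, + strand: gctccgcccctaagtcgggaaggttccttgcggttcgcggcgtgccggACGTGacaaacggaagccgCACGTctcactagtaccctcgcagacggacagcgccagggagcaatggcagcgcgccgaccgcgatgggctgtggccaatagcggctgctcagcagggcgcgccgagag
GAPDH, chr12:6535142-6535263, + strand: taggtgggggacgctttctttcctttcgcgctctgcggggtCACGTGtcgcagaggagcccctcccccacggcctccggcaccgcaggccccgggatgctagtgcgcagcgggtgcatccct
HK2, chr2:74834960-74835059, + strand: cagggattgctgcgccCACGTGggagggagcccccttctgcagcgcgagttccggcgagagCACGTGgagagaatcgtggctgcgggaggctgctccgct
Of the stretches shown, those of LDHA, GAPDH and HK2 held a full CACGTG. The relation between such matches and the counts was not tested. A match is a description of the letters, not a binding site.

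Levels were compared between genes only per kb of exon, using the union of all annotated exons of GENCODE release 29. GAPDH stood first, with a mean of 333 scaled CPM per kb over the 3 libraries and a range of 300.2 to 369. ENO1 followed at 104 (95.2 to 115), PKM at 93.3 (73.2 to 115) and LDHA at 82.9 (69.0 to 106), and the ranges of these 3 overlapped. PGK1 came next at 60.6 (54.4 to 66.9), GPI at 40.0 (36.3 to 42.0) and PFKL at 16.1 (15.2 to 16.7), with no overlap between these neighbours. GAPDH stood first and ALDOA last with either gene length used. HK1 had 8.40 (6.85 to 10.4) and HK2 6.20 (4.84 to 7.66), and their ranges overlapped. With the length of the principal transcript in place of the exon union, PKM stood ahead of ENO1 and GPI ahead of PGK1, and the other ranks were as before. The ranges of HK1 (12.0 to 18.2) and HK2 (5.09 to 8.04) then did not overlap.

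**Figure D1:**
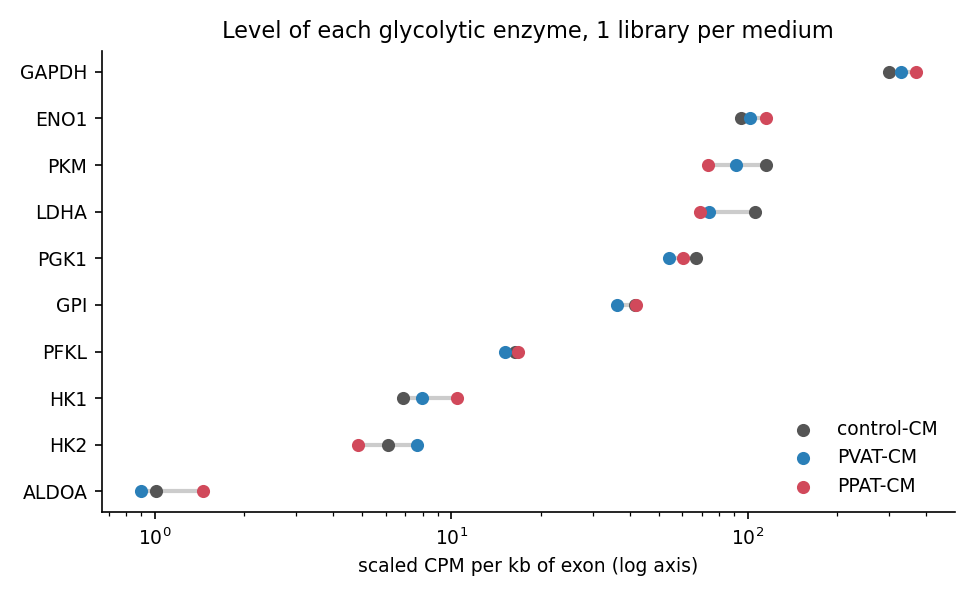
Level of each enzyme in scaled CPM per kb of exon (log axis), with 1 point per library coloured by medium and a grey line from the lowest to the highest. GAPDH lies highest at 300.2 to 369, the ranges of ENO1, PKM and LDHA overlap, and ALDOA lies lowest at 0.896 to 1.46.

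ALDOA, the muscle-type aldolase that splits fructose bisphosphate (ENSG00000149925, chromosome 16, 30064164 to 30070457), was last, with only 60 counts for control-CM, 50 for PVAT-CM and 105 for PPAT-CM. That is 1.12 scaled CPM per kb on average, while its brain-type paralog ALDOC had 2058, 1692 and 1433 counts. GENCODE release 29 places the gene AC093512.2 on the same strand across ALDOA, sharing 1657 of its 3916 exon bases (42.3%), and that gene had 3, 4 and 24 counts. The sources used here do not give how the authors' counting treated reads that lie in more than 1 gene, so the level and rank of ALDOA are uncertain. No other enzyme shared over 14.2% of its exon bases with 1 other gene, the share of GAPDH with AC006064.4 on the other strand, which had 0 counts in all 3 libraries. Reads of near-identical copies were few: the 62 GAPDH pseudogene rows together had 44, 31 and 31 counts, at most 0.324% of the GAPDH count.

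The first comparison, PPAT-CM against control-CM, addressed how medium from the fat called tumor altered expression in the cells. The last enzymes of the pathway, PKM and LDHA, were lower in PPAT-CM, and HK1, GAPDH and ENO1 were higher. Of the 10 enzymes 1 was at least 1.5-fold higher, HK1, and 2 were at least 1.5-fold lower, PKM and LDHA, where 12.0% and 8.71% of all 12256 genes were. At 1.2-fold the counts were 4 higher and 3 lower, against 29.5% and 24.5% of all genes. The median log2 ratio of the enzymes was 0.02, with a mean of 0.00 and a range from -0.66 to 0.60, and the median of all genes was 0.03. The middle of the enzymes therefore lay where the middle of all genes lay, and the enzymes differed in opposite directions around it.

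PKM encodes the muscle-type pyruvate kinases, which make pyruvate and ATP from phosphoenolpyruvate (ENSG00000067225, chromosome 15, 72199029 to 72231822). Its counts were 15005 for control-CM, 11157 for PVAT-CM and 11544 for PPAT-CM, or 989, 783 and 628 scaled CPM. PPAT-CM was lowest, PVAT-CM lay between, and the gene was 1.58-fold lower in PPAT-CM than in control-CM (1.54 to 1.61). Gene counts do not separate its PKM1 and PKM2 splice forms.

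LDHA, the muscle-type lactate dehydrogenase subunit that favours lactate formation (ENSG00000134333, chromosome 11, 18394388 to 18408425), had 9969, 6537 and 7877 counts in the same order of media. On the scaled CPM axis this is 657, 459 and 428, with control-CM apart and both adipose media close together. LDHA was 1.53-fold lower in PPAT-CM than in control-CM (1.49 to 1.58), an interval that spans the 1.5-fold threshold. With total counts in place of TMM, neither PKM nor LDHA reached 1.5-fold, at log2 ratios of -0.42 and -0.38. PGK1, which makes the first ATP of the payoff phase (ENSG00000102144, chromosome X, 77910739 to 78129296), had 5597, 4273 and 6136 counts, or 369, 300 and 334 scaled CPM. It was 1.11-fold lower in PPAT-CM (1.07 to 1.15) with TMM, and its log2 ratio turned from -0.15 to 0.10 with total counts.

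GAPDH, which oxidises glyceraldehyde phosphate and makes NADH (ENSG00000111640, chromosome 12, 6533927 to 6538374), had 13573, 14025 and 20252 counts, or 895, 984 and 1101 scaled CPM. It was highest in PPAT-CM, by 1.23-fold over control-CM (1.2 to 1.26). ENO1, the widely expressed enolase (ENSG00000074800, chromosome 1, 8861000 to 8879250), had 7616, 7655 and 11185 counts, or 502, 537 and 608 scaled CPM, and was 1.21-fold higher (1.18 to 1.25). The order of the media was the same for both genes, control-CM below PVAT-CM below PPAT-CM. GAPDH is also a common reference gene for qPCR.

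Ratios between enzymes of 1 library need no scaling factor. For each GAPDH count there were 0.734 LDHA counts with control-CM (0.716 to 0.754), 0.466 with PVAT-CM (0.453 to 0.480) and 0.389 with PPAT-CM (0.379 to 0.399). For each ENO1 count there were 1.97 PKM counts with control-CM (1.92 to 2.03), 1.46 with PVAT-CM (1.42 to 1.5) and 1.03 with PPAT-CM (1.01 to 1.06). Both ratios stepped down from control-CM to PVAT-CM to PPAT-CM with intervals that did not overlap. Both set a gene given above as lower over a gene given as higher, so their direction is no separate support. PGK1 to GAPDH was 0.412 with control-CM, 0.305 with PVAT-CM and 0.303 with PPAT-CM, and the intervals of the adipose media overlapped. ENO1 to GAPDH was 0.561, 0.546 and 0.552, with overlapping intervals. LDHA to PKM was 0.664 with control-CM (0.648 to 0.682), 0.586 with PVAT-CM (0.568 to 0.604) and 0.682 with PPAT-CM (0.663 to 0.702). The PVAT-CM interval of this last ratio lay below those of control-CM and PPAT-CM. Such ratios show unequal differences between genes and do not say which gene of a pair differed.

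The 2 hexokinases, which phosphorylate glucose on entry, differed in opposite directions. HK1, the housekeeping form (ENSG00000156515, chromosome 10, 69269984 to 69401884), had 654, 713 and 1206 counts, or 43.1, 50.0 and 65.6 scaled CPM. HK2, the inducible form that is typical of tumors and of insulin-responsive tissue (ENSG00000159399, chromosome 2, 74833981 to 74893359), had 561, 662 and 540 counts, or 37.0, 46.4 and 29.4 scaled CPM. PPAT-CM thus held the highest HK1 and the lowest HK2. HK1 was 1.52-fold higher than in control-CM (1.38 to 1.68), and HK2 was 1.26-fold lower (1.12 to 1.42). With upper quartile factors HK1 no longer reached 1.5-fold, and with total counts the HK2 log2 ratio shrank from -0.33 to -0.09.

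GPI, which converts glucose 6-phosphate to fructose 6-phosphate (ENSG00000105220, chromosome 19, 34359480 to 34402413), had 6733, 5532 and 8252 counts and a ratio of 1.01 (0.979 to 1.04). PFKL, the liver-type subunit of the committing enzyme phosphofructokinase (ENSG00000141959, chromosome 21, 44300051 to 44327376), had 2216, 1931 and 2746 counts and a ratio of 1.02 (0.966 to 1.08). The intervals of both include 1. ALDOA had a ratio of 1.44 (1.04 to 2.02), with the limits on its count given above.

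**Figure D2:**
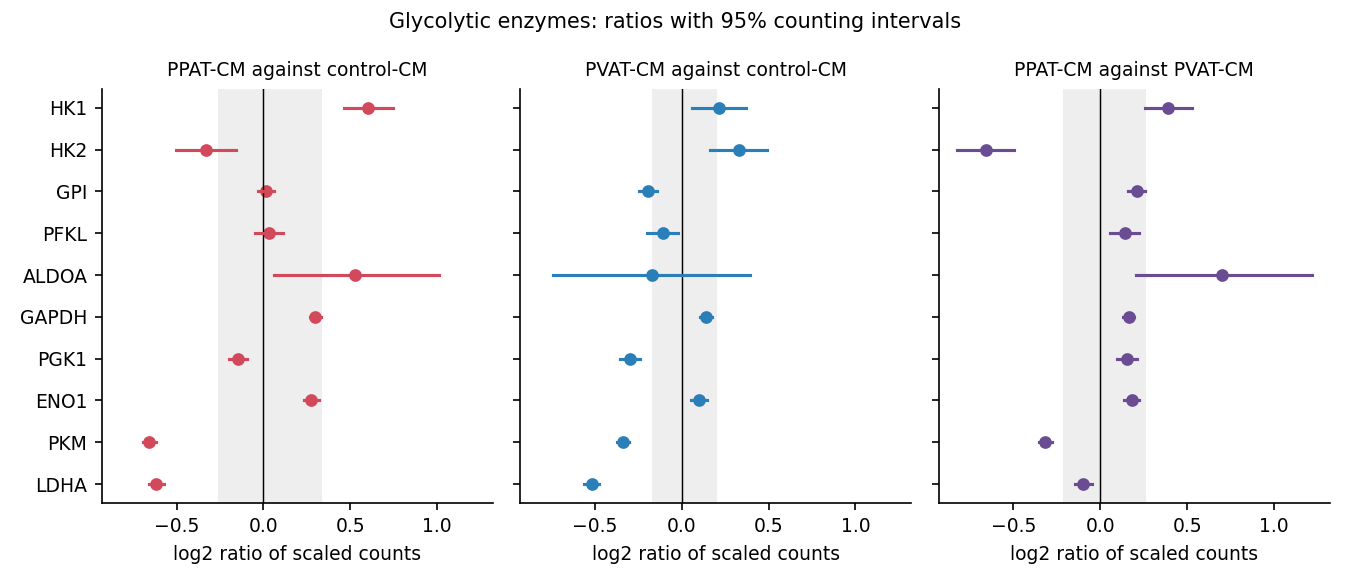
Log2 ratio of scaled counts of each enzyme in the 3 comparisons, in pathway order from top to bottom, with bars for the 95% counting interval, and grey bands from the lower to the upper quartile of all 12256 genes. PKM and LDHA lie left of the band in both comparisons with control-CM, HK1 lies right of it in PPAT-CM against control-CM, and HK2 lies on opposite sides of 0 in PPAT-CM and PVAT-CM.

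The second comparison, PVAT-CM against control-CM, addressed the same for the fat called normal. It uses the same control library as the first, so the values of both are given side by side and do not support each other. LDHA, PKM and PGK1 were lower in PVAT-CM, HK2 was higher, and the differences were smaller than 1.5-fold. None of the 10 enzymes reached 1.5-fold in either direction, where 3.15% of all genes were higher and 3.49% lower. At 1.2-fold 1 was higher, HK2, and 3 were lower, against 18.5% and 16.3% of all genes. The median log2 ratio was -0.14, with 6 of 10 below 0, and the median of all genes was 0.02.

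LDHA was 1.43-fold lower in PVAT-CM (1.39 to 1.48), next to 1.53-fold in PPAT-CM. PKM was 1.26-fold lower (1.23 to 1.3), next to 1.58-fold, and PGK1 was 1.23-fold lower (1.18 to 1.28), next to 1.11-fold. The difference in LDHA was thus of like size in both media, while that in PKM was larger in PPAT-CM. GPI was 1.14-fold lower (1.10 to 1.19) and PFKL 1.08-fold lower (1.01 to 1.15) in PVAT-CM, and PFKL turned to a log2 ratio of 0.02 with total counts. HK2 was 1.26-fold higher (1.12 to 1.41), HK1 1.16-fold (1.04 to 1.29), GAPDH 1.10-fold (1.07 to 1.13) and ENO1 1.07-fold higher (1.04 to 1.10). The interval of ALDOA included 1 (0.597 to 1.31).

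The third comparison set the 2 adipose media against each other. Here HK2 and PKM were lower in PPAT-CM, and HK1 was higher. ALDOA was at least 1.5-fold higher and HK2 at least 1.5-fold lower, where 8.56% and 6.07% of all genes were. At 1.2-fold HK1 joined on the higher side and PKM on the lower, against 24.7% and 20.4%. HK2 was 1.58-fold lower (1.41 to 1.77), the largest fold between the adipose media among the enzymes with over 200 counts per library. With total counts HK2 also fell short of 1.5-fold. HK1 was 1.31-fold higher (1.19 to 1.44), PKM 1.25-fold lower (1.21 to 1.28) and ALDOA 1.63-fold higher (1.15 to 2.33).

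The remaining enzymes differed little between the adipose media. GPI was 1.16-fold (1.12 to 1.2), ENO1 1.13-fold (1.10 to 1.17), GAPDH 1.12-fold (1.10 to 1.14), PGK1 1.11-fold (1.07 to 1.16) and PFKL 1.10-fold higher in PPAT-CM (1.04 to 1.17). LDHA was 1.07-fold lower (1.04 to 1.11), and its log2 ratio turned from -0.10 to 0.01 with total counts. The median over the enzymes was 0.16 on the log2 scale, with 7 of 10 above 0, beside 0.02 for all genes.

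The 10 enzymes summed to 61984 counts for control-CM, 52535 for PVAT-CM and 69843 for PPAT-CM. That is 0.375%, 0.371% and 0.412% of all counts, and 0.542%, 0.470% and 0.487% of the counts outside the mitochondrial chromosome. The order of the media differs between these 2 denominators: PPAT-CM is highest over all counts, and control-CM is highest once mitochondrial transcripts are left out.

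The balance of isozymes was described as the share of a family's reads per kb of exon. HK2 made up 47.1% of HK1 and HK2 in control-CM (44.3 to 50.0), 49.1% in PVAT-CM (46.4 to 51.8) and 31.7% in PPAT-CM (29.5 to 34.0). Only the PPAT-CM interval lay apart from those of control-CM and PVAT-CM. The size of these shares depends on the gene length used, which the intervals do not cover. Per kb of principal transcript, HK1 and HK2 had 12.0 and 6.41 scaled CPM in control-CM. The same values were 13.9 and 8.04 in PVAT-CM, and 18.2 and 5.09 in PPAT-CM, so HK2 was then clearly below HK1 in every library. ENO1 made up 78.1%, 83.5% and 89.3% of ENO1 and ENO2, the neuronal enolase, in the same order of media, with intervals that did not overlap. ENO2 itself was 1.94-fold lower in PPAT-CM than in control-CM (1.79 to 2.09) and 1.33-fold lower in PVAT-CM (1.23 to 1.43).

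LDHA made up 81.9% of LDHA and LDHB in control-CM (80.9 to 82.8), 76.3% in PVAT-CM (75 to 77.5) and 78.1% in PPAT-CM (77.0 to 79.2). LDHB, the heart-type subunit, had 1058, 978 and 1061 counts and was 1.21-fold lower in PPAT-CM (1.11 to 1.32), while its PVAT-CM interval included 1 (0.931 to 1.11, as a fold lower). LDHA thus remained the main form in every library. PFKL made up 34.8% (33.5 to 36.1), 36.3% (34.9 to 37.7) and 38.3% (37.1 to 39.5) of the 3 phosphofructokinase subunit genes. The PVAT-CM interval overlapped both others, and those of control-CM and PPAT-CM did not overlap. PFKP, the platelet type, was 1.33-fold lower in PPAT-CM (1.22 to 1.44), and PFKM, the muscle type, had a ratio of 1.01 (0.949 to 1.08). ALDOA shares of 2.13%, 2.16% and 5.19% beside ALDOC rest on the uncertain ALDOA count.

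**Figure D3:**
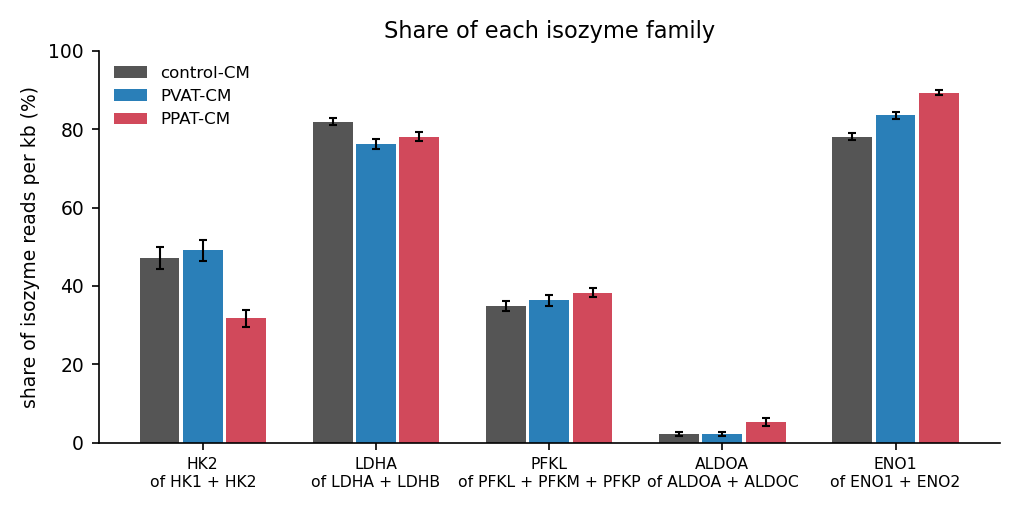
Share of each named isozyme in its family, in percent of reads per kb of exon, with 1 bar per library and 95% counting intervals. The HK2 bar is 31.7% in PPAT-CM beside 47.1% and 49.1%, and the ENO1 bars step from 78.1% to 83.5% to 89.3%.

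When reads of all isozymes were summed for each reaction, the hexokinase step was 1.19-fold higher in PPAT-CM (1.10 to 1.28) and 1.2-fold higher in PVAT-CM (1.11 to 1.3) than in control-CM. The unequal HK1 and HK2 differences thus gave like sums in both media. Pyruvate kinase was 1.58-fold (1.54 to 1.62) and lactate dehydrogenase 1.5-fold lower in PPAT-CM (1.45 to 1.54), next to 1.26-fold (1.23 to 1.3) and 1.38-fold lower in PVAT-CM (1.34 to 1.42). Phosphofructokinase differed by less, 1.04-fold lower in PPAT-CM (1.01 to 1.09) and 1.12-fold lower in PVAT-CM (1.07 to 1.16). The PPAT-CM log2 ratio of -0.06 is smaller in size than the 0.24 shift with total counts, so its direction depends on scaling. Aldolase was 1.67-fold lower in PPAT-CM (1.56 to 1.78), a sum in which nearly all reads are from ALDOC, itself 1.74-fold lower (1.63 to 1.86). ALDOA had a ratio of 1.44 in the other direction, so the size and direction of the aldolase sum rest on the uncertain ALDOA count.

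Of the 18 other glycolytic isozymes 9 were measured. In PPAT-CM 1 of these was at least 1.5-fold higher and 2 were lower than in control-CM, beside 12.0% and 8.71% of all genes, with a median of -0.27. With total counts 1 was lower, since ALDOC no longer reached 1.5-fold, and with upper quartile factors 3 were lower, as BPGM joined. PGAM1, the phosphoglycerate mutase that acts between PGK1 and ENO1, counted 2062, 2101 and 4331 reads, 1.73-fold higher in PPAT-CM (1.64 to 1.83). The 2 lower genes with TMM were ENO2 and ALDOC. TPI1, which interconverts the triose phosphates, had 6701, 5366 and 8138 counts, a ratio of 1.00 in PPAT-CM (0.970 to 1.03) and was 1.17-fold lower in PVAT-CM (1.13 to 1.22). In PVAT-CM none of the 9 reached 1.5-fold, with a median of -0.19.

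**Figure D4:**
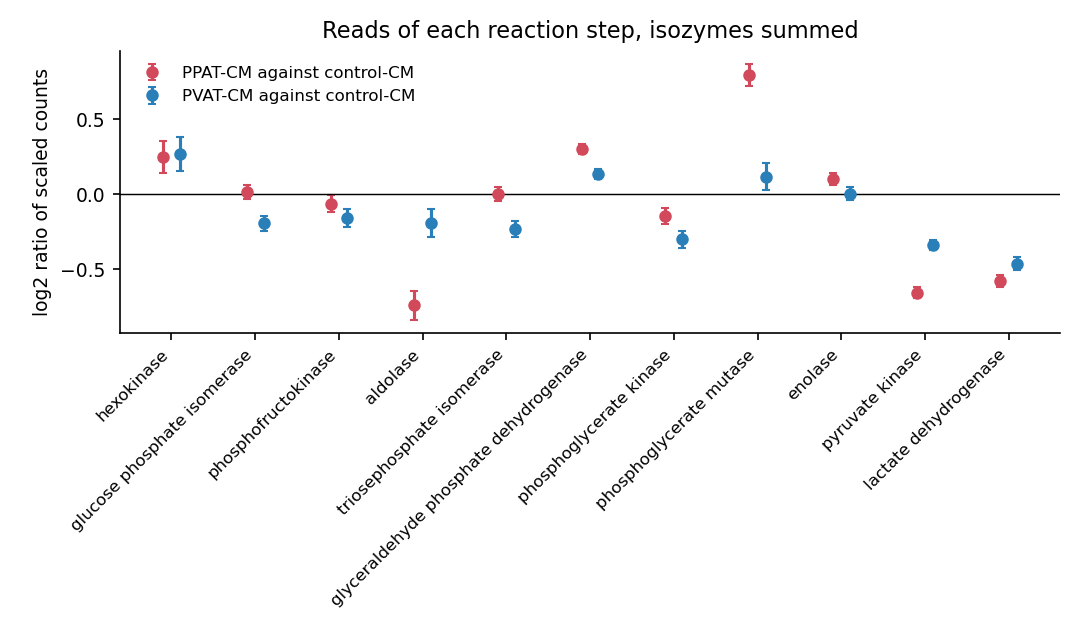
Log2 ratio of scaled counts for each reaction step in pathway order, isozymes summed, in PPAT-CM and PVAT-CM against control-CM, with 95% counting intervals. In PPAT-CM phosphoglycerate mutase lies highest, while aldolase, pyruvate kinase and lactate dehydrogenase lie lowest.

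Genes around the pathway came from 8 further lists, and their counts are read against the shares of all genes and under other scalings. Those scalings of the lists were chosen after the data were seen. Of 11 hexose and lactate transporters and their chaperone 8 were measured, and 2 were at least 1.5-fold lower in PPAT-CM than in control-CM, with none higher, beside 8.71% and 12.0% of all genes. SLC2A1, the widespread glucose transporter GLUT1, had 644, 668 and 423 counts and was 1.85-fold lower in PPAT-CM (1.63 to 2.09), with an interval that included 1 in PVAT-CM (0.989 to 1.23). The monocarboxylate transporter SLC16A7 was 1.81-fold lower in PPAT-CM (1.39 to 2.36). SLC16A1, which moves lactate and pyruvate across the membrane, had 3636, 5139 and 5282 counts and was 1.5-fold higher in PVAT-CM (1.44 to 1.57) and 1.2-fold higher in PPAT-CM (1.15 to 1.25). It was the 1 transporter past 1.5-fold in PVAT-CM with TMM, where 3.15% of all genes were higher. With upper quartile factors there was 0, and with total counts there were 2, as SLC2A12 joined. The intervals of SLC16A3, the lactate exporter of glycolytic cells, included 1 in both media.

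The pentose phosphate pathway branches off from glycolysis and makes NADPH and ribose. All 7 of its listed genes were measured, and in PPAT-CM 4 were at least 1.5-fold higher than in control-CM and none lower, beside 12.0% and 8.71% of all genes. The transketolase TKT was 1.89-fold (1.80 to 1.99), the transaldolase TALDO1 1.86-fold (1.75 to 1.97) and the dehydrogenase PGD 1.67-fold higher (1.57 to 1.77). With total counts 5 of the list were at least 1.5-fold higher in PPAT-CM, and with upper quartile factors 3. In PVAT-CM no gene of this list reached 1.5-fold with TMM, and 3 were at least 1.2-fold higher. With total counts 1 reached 1.5-fold in PVAT-CM.

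Entry of pyruvate into mitochondria was mixed. Of 12 measured genes 2 were at least 1.5-fold higher in PPAT-CM, PDK2 and DLD, and 1 was lower, beside 12.0% and 8.71% of all genes. With upper quartile factors 0 were higher and 2 lower, and without mitochondrial genes in the TMM factors 1 was higher. The lower gene, MPC2, is a subunit of the mitochondrial pyruvate carrier, had 3888, 2898 and 2424 counts and was 1.94-fold lower (1.85 to 2.05). Its partner MPC1 was 1.48-fold lower (1.34 to 1.64). Among 16 citric acid cycle genes 4 were at least 1.5-fold higher in PPAT-CM and none lower, beside 12.0% and 8.71% of all genes, with a median of 0.27. With total counts 7 were higher. The malate dehydrogenase MDH2 was 1.97-fold higher (1.85 to 2.09). None of these 16 reached 1.5-fold in PVAT-CM with TMM, where the median was 0.22, and 1 did with total counts.

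Several of the glycolytic enzymes are HIF-1 targets, and the enzymes as a set had a median log2 ratio of 0.02 in PPAT-CM against control-CM. Hypoxia inducible genes outside glycolysis share this regulator and were read as a separate list. That list is a selection, and its counts depend on which genes were placed in it. EGLN3, EGLN1 and PFKFB3 were placed with the regulators below instead, and were at least 1.5-fold higher in PPAT-CM with TMM. Of the 14 measured genes of the hypoxia list 5 were at least 1.5-fold lower in PPAT-CM and none higher, beside 8.71% and 12.0% of all genes, with a median of -0.56. The lower count was 2 with total counts, without BNIP3, BNIP3L and NDRG1, and 9 with upper quartile factors, and the median was -0.32 and -0.63. BNIP3, a mitophagy receptor, had 6210, 3961 and 4843 counts, and was 1.55-fold lower in PPAT-CM (1.5 to 1.61) and 1.47-fold lower in PVAT-CM (1.42 to 1.53). NDUFA4L2 was 8.63-fold lower in PPAT-CM and 2.49-fold lower in PVAT-CM (2.41 to 2.58), NDRG1 was 1.71-fold lower in PPAT-CM (1.56 to 1.88), and ADM was 1.97-fold (1.44 to 2.72) and 1.71-fold lower (1.23 to 2.38). In PVAT-CM 2 of the 14 reached 1.5-fold with TMM, both lower, where 3.49% of all genes were lower. With total counts 1 was also higher, and the median of -0.12 turned to 0.01.

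Of 13 measured regulators 4 were at least 1.5-fold higher in PPAT-CM than in control-CM and none lower, beside 12.0% and 8.71% of all genes, with a median of 0.03. With upper quartile factors 2 were higher, without EGLN1 and PFKFB3, and the median was -0.05. With total counts 5 were higher, HIF1A among them, and the median was 0.27. Without mitochondrial genes in the TMM factors 3 were higher, without PFKFB3. VHL, which marks HIF for destruction, was 1.65-fold (1.56 to 1.75), the oxygen sensors EGLN3 1.64-fold (1.38 to 1.95) and EGLN1 1.55-fold (1.41 to 1.70), and PFKFB3, which makes the activator of phosphofructokinase, 1.51-fold higher (1.21 to 1.91). HIF1A, the oxygen-regulated HIF-1 subunit, was 1.35-fold higher (1.27 to 1.45). VHL, EGLN3, EGLN1, PFKFB3 and HIF1A were not in the list of hypoxia inducible genes, so the counts of that list do not cover them. The interval of PFKFB2 included 1 in both media, as did that of PFKFB4 in PPAT-CM. In PVAT-CM none of the 13 reached 1.5-fold.

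Gluconeogenesis genes had 3 of 7 measured, with a median of -0.38 in PPAT-CM. PCK2, the mitochondrial phosphoenolpyruvate carboxykinase, was 1.77-fold higher in PVAT-CM (1.69 to 1.86) and 1.2-fold higher in PPAT-CM (1.14 to 1.26). In PVAT-CM 3.15% of all genes were at least 1.5-fold higher. The others went the other way in PPAT-CM, PC 1.47-fold lower (1.3 to 1.66) and G6PC3 1.3-fold lower (1.2 to 1.41). In PVAT-CM the intervals of PC and G6PC3 included 1. Of 9 measured glycogen and glucose phosphate genes 2 were at least 1.5-fold higher in PPAT-CM and 1 lower, beside 12.0% and 8.71% of all genes. The higher count was 4 with total counts and 1 with upper quartile factors, without UGP2. PGM2 was 1.82-fold (1.66 to 2.00) and UGP2 1.52-fold higher (1.34 to 1.72), and the glycogen phosphorylase PYGL was 2.07-fold lower (1.60 to 2.68) and also 1.67-fold lower in PVAT-CM (1.29 to 2.17).

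**Figure D5:**
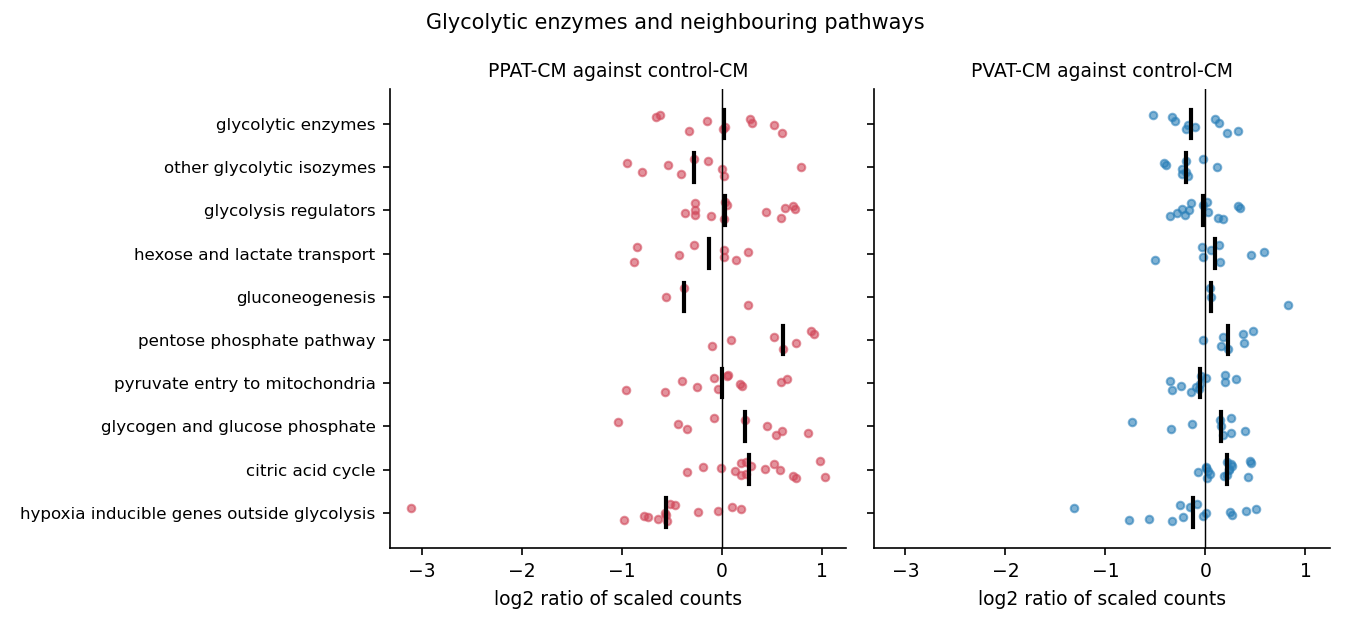
Log2 ratio of scaled counts of each measured gene, by list, in PPAT-CM and in PVAT-CM against control-CM, with 1 point per gene and a black bar at each list's median. In PPAT-CM the hypoxia median is -0.56 and the median of the 10 enzymes is 0.02.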

How the data were processed

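RNA-seq of 3 LNCaP libraries was used. The deposited table holds whole-number raw read counts for each Ensembl gene. The authors used FastQC, Trimmomatic, HISAT2, featureCounts and edgeR with GRCh38, per the submitters' processing notes. Not given in the sources used here were versions, annotation, strand setting and the treatment of reads in overlapping genes. Names, positions and exon lengths came from GENCODE release 29 (GRCh38), which matched 58611 rows. Counts were scaled with TMM factors (edgeR 4.0.16, R 4.3.3) of 0.917, 1.01 and 1.08 for control-CM, PVAT-CM and PPAT-CM. Log2 ratios used a pseudocount of 0.5, and printed folds are ratios of scaled counts with Clopper-Pearson 95% intervals (scipy 1.17.1, Python 3.11.15). Library totals set this precision, and a count of 0 allows up to 3 counts, or 0.163 to 0.210 scaled CPM. With 1 library per medium edgeR's test has no residual degrees of freedom. The enzymes, the 9 other gene lists and the 5 marker lists were chosen with earlier results of these data known. Named were all 10 enzymes, a fixed set of isozymes, regulators and transporters, and up to 4 genes per list past 1.5-fold, with MPC1, BNIP3 and the markers added after their values were seen. Some genes under this rule are not reported here. The ratio steps were tested on simulated data. DESeq2 1.42.0 size factors and other settings were tried as alternatives.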

Additional observations from a re-analysis of the deposited data

How the results depend on the processing

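Total counts in place of TMM raised the median log2 ratio of all genes by 0.24 in PPAT-CM against control-CM, by 0.13 in PVAT-CM against control-CM and by 0.11 in PPAT-CM against PVAT-CM. The 10-enzyme medians then became 0.26, -0.01 and 0.27, against 0.02, -0.14 and 0.16 with TMM. With upper quartile factors the medians were -0.050 and 0.10 for PPAT-CM against control-CM and against PVAT-CM. The mean over the enzymes in place of the median was 0.086 in PPAT-CM against PVAT-CM. In the 150 values recomputed for single enzymes, 34 left their counting interval, 0 moved by over 1.2 times and 0 past 1.2-fold changed direction. In PPAT-CM against control-CM, 2 enzymes were at least 1.5-fold higher and 0 lower with total counts, and 0 were higher with upper quartile factors. In PPAT-CM against PVAT-CM 0 were lower with total counts. At 1.2-fold the counts were 4 higher and 3 lower in PPAT-CM against control-CM, 1 and 3 in PVAT-CM against control-CM, and 2 and 2 between the adipose media, and 0 enzymes reached 2-fold in any comparison. Leaving out ALDOA, an alternative chosen after seeing the data, gave medians of 0.02, -0.11 and 0.15. Filters of at least 10 counts and no filter kept all 10 enzymes, and a mean of at least 200 counts removed ALDOA. Raw counts without length gave LDHA shares of 87.0% to 90.4% and PFKL shares of 44.1% to 47.1%. No paired analysis was possible because each medium had 1 library. Changes smaller than the unmeasured spread between cultures cannot be read from these libraries.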
